A study of Drosophila melanogaster with 16 samples.

Results

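The genes described here encode small secreted carriers of hydrophobic molecules, the odorant binding proteins (Obp) and the Npc2 proteins of Drosophila melanogaster. They were chosen by name, as every gene whose FlyBase symbol begins with Obp and a digit or with Npc2, which gave 51 Obp and 8 Npc2 genes, or 59 of the 17559 genes in the count tables. The libraries were made from P1 neurons, a cluster of 12 cells of the male brain that takes part in courtship. The mated group holds 4 libraries from males that were paired with a female after living alone. The naive group holds 4 libraries from males that were left virgin. All males carried UAS>stop>GFP/+; fruFLP/NP2631-Gal4, so that GFP marked the cells where the NP2631-Gal4 driver and a fru recombinase overlapped, and all had been isolated for 4 to 6 days and are given as 3 to 6 days old. Cells with GFP were taken from live flies with a patch pipette. The labels do not give the number of cells or animals behind a library, so p-values measure the spread between these libraries only, which may be partly technical.

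Odorant binding proteins are best known from the fluid around olfactory and taste neurons, where support cells secrete them and they carry odours and pheromones, but many of them are made in other tissues. Npc2 proteins bind sterols and other lipids, and their founding member works with the membrane protein Npc1 to move sterols out of lysosomes. In flies the Npc2 family has expanded, and its members have been studied in steroid hormone synthesis, in immune recognition of bacterial cell walls and in chemosensory organs.

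Library totals ran from 7440583 to 13651313 raw counts in mated and from 6897560 to 9162763 in naive libraries. A floor of 3 counts, used here as the limit of detection, covers counting error only. Levels are given in CPM, counts scaled to a common library size after TMM correction, with the SD over libraries, and the floor amounts to 0.218 to 0.494 CPM on this scale. The title numbers of the libraries are nearly confounded with the groups, since number 1119 is the only one found in both, in mated libraries 1 and 3 and naive library 3. The neuron markers elav, nSyb, Syt1 and brp were read in all 8 libraries, with a summed level of 3462 to 5725 CPM in mated and 5850 to 8519 CPM in naive libraries. The selection genes fru and dsx summed to 119 to 669 CPM in mated and 380 to 1230 CPM in naive libraries.

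Of the 59 carriers, 38 had at least 1 count in some library and 31 reached the floor in at least 1 library. The 31 were 26 Obp and 5 Npc2 genes. Only 8 reached it in all 8 libraries, namely Obp44a, Obp51a, Obp56g, Obp99b, Obp99c, Npc2a, Npc2g and Npc2h. Another 23 reached it in 1 to 7 libraries, 10 of these in exactly 1. The number of carriers at the floor was 18, 19, 18 and 20 in mated libraries 1 to 4, against 13, 16, 13 and 15 in naive libraries 1 to 4, so that every mated library held more of them. Over all genes the number at the floor overlapped between the groups, at 7607 to 8120 in mated and 7099 to 8218 in naive libraries.

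**Figure D1:**
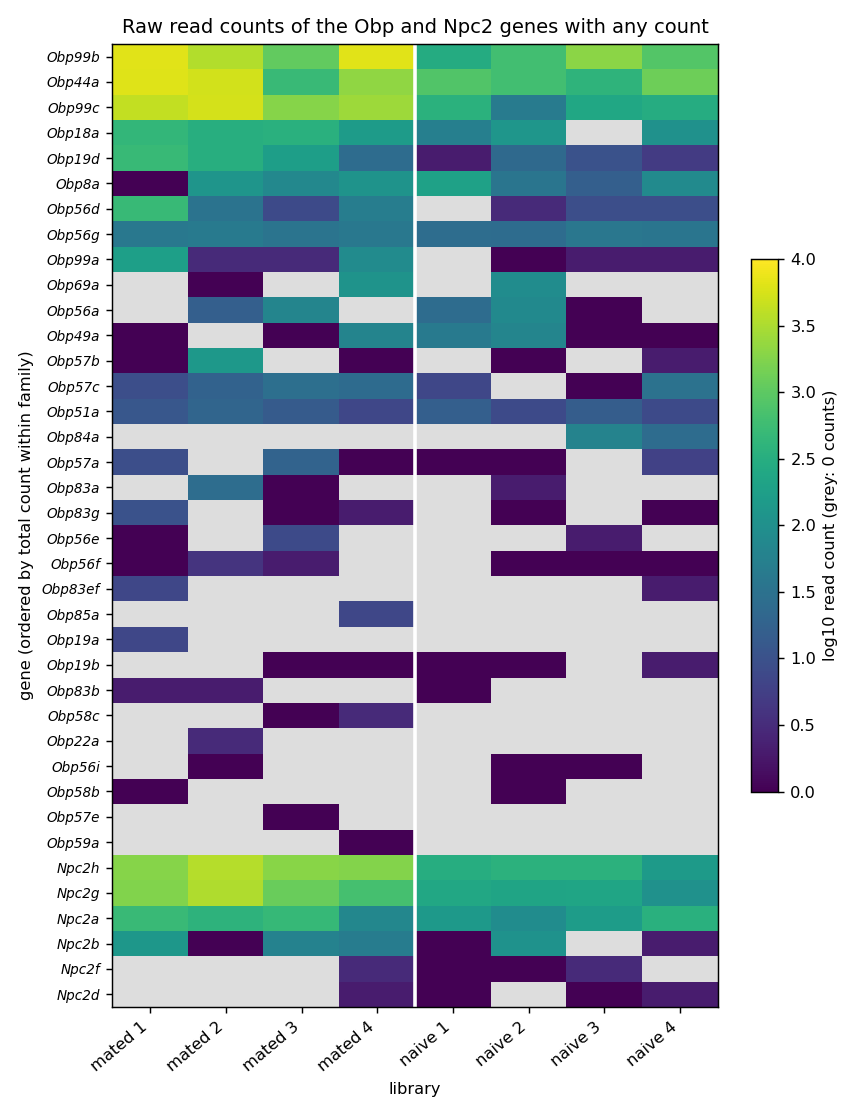
Raw read count of each of the 38 Obp and Npc2 genes with any count (rows) in each library (columns, 4 mated left of 4 naive), as colour on a log10 scale with 0 counts in grey. The 8 genes that reached the floor in all libraries form unbroken rows, as do Obp8a and Obp19d, while every other row holds grey cells.

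No count at all was found for 19 Obp genes, which were Obp19c, Obp28a, Obp46a, Obp47a, Obp47b, Obp50a, Obp50b, Obp50c, Obp50d, Obp50e, Obp56b, Obp56c, Obp56h, Obp57d, Obp58d, Obp73a, Obp83cd, Obp93a and Obp99d, or for Npc2c and Npc2e. Obp50b and Obp50c share all 1648 of their exonic bases on the same strand, and Obp57d shares all 1488 with Cpr57A. Opposite-strand overlaps covered 611 of 611 bases in Obp47b, 611 of 661 in Npc2e, 492 of 591 in Obp93a and 414 of 708 in Npc2c. Reads from shared bases may not have been counted, so 0 counts in these genes need not mean absence. Another 7 genes, Obp19b, Obp56i, Obp57e, Obp58b, Obp59a, Obp83b and Npc2d, had 1 to 6 counts in all and never reached the floor. Obp83b, which sits beside the pheromone carrier LUSH in trichoid hairs of the antenna, was among these. LUSH itself, encoded by lush and left out by the naming rule, carries the pheromone cis-vaccenyl acetate and had 0, 0, 2 and 1 counts in mated libraries 1 to 4, against 0, 0, 1 and 0 counts in naive libraries 1 to 4. The list of antennal and taste sensillum markers summed to 0.291 to 15.2 CPM in mated and 0.109 to 2.64 CPM in naive libraries, with Ir25a and Gr64f at 0 in every library.

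Per kilobase of exon, a scale on which genes can be set side by side, the levels were spread unevenly over the family. Over all 8 libraries Obp99b averaged 543 CPM per kb, Obp99c 294, Obp44a 226, Npc2h 166 and Npc2g 149.6. Npc2a came next at 45.7 CPM per kb, followed by Obp18a at 28.3, Obp8a at 14.9, Obp19d at 12.3, Obp56d at 9.56 and Obp56g at 8.65. Obp44a, Obp99b and Obp99c together made 81.6% to 94.2% of the summed Obp level (CPM) in mated libraries and 73.3% to 94.3% in naive libraries. Npc2g and Npc2h made 84.9% to 95.3% of the summed Npc2 level in mated libraries, against 42.0% to 78.6% in naive libraries. The order depended on the group. In mated libraries Obp99b averaged 846 CPM per kb, Obp99c 541, Obp44a 354, Npc2h 279 and Npc2g 257. In naive libraries Obp99b was again first at 240.2 CPM per kb, followed by Obp44a at 98.4, Npc2h at 53.3, Obp99c at 46.3, Npc2g at 42.4 and Npc2a at 39.1. Obp19d and Obp56d, at 23.2 and 18.3 CPM per kb in mated libraries, were at 1.41 and 0.849 in naive libraries, where Obp56g was at 9.12. Neighbours in these orders overlapped over the libraries of their group, except that all mated libraries had more Npc2g than any had Npc2a, and neighbours were not tested against each other.

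Of the 59 genes, 15 passed the filter on low counts and were tested, 11 Obp and 4 Npc2. In edgeR's quasi-likelihood test with Benjamini-Hochberg adjustment over all 7090 tested genes, Obp99c, Npc2g and Npc2h had an adjusted p under 0.05, all higher in mated libraries, and no carrier passed in the other direction. Over all tested genes 0.381% passed in either direction and 0.339% passed as higher in mated libraries. At an unadjusted p under 0.05, 7 of the 15 passed, all higher in mated libraries, against 10.6% of all tested genes in either direction and 5.54% as higher. All 4 mated libraries lay above all 4 naive libraries for 4 carriers, which were the same 3 and Obp18a, against 4.26% of tested genes. The fitted log2 fold change, mated over naive, was positive for 11 and negative for 4 of the 15, with a median of 1.67, against a median of -0.01 over all tested genes.

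**Figure D2:**
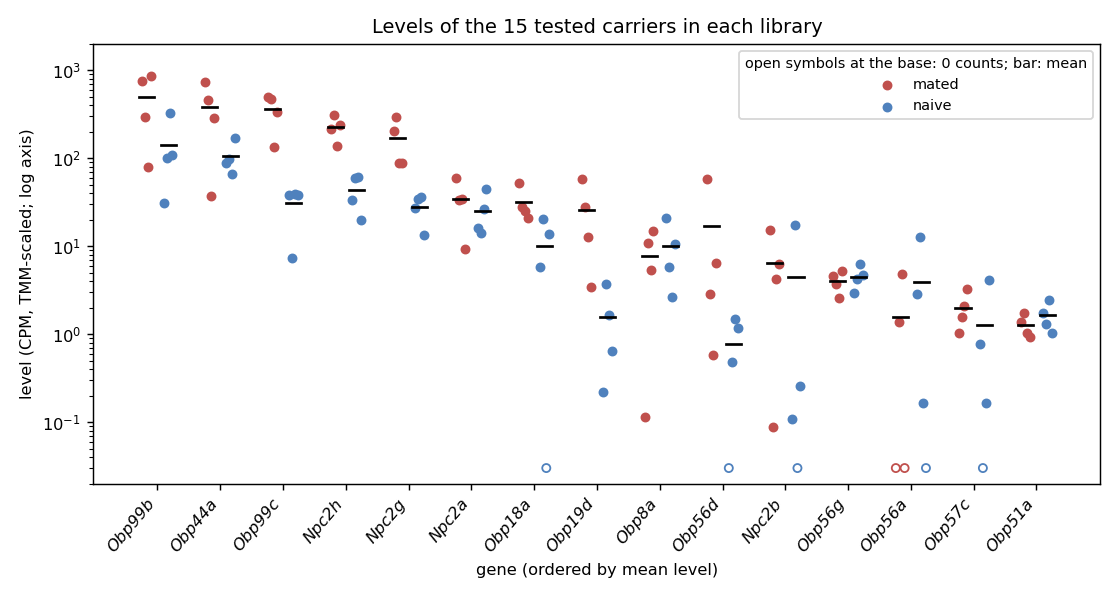
Level in CPM (log axis) of the 15 tested carriers in each mated (left of each pair) and naive library, with open symbols at the base for 0 counts and a bar at each group mean. For Obp99c, Npc2g, Npc2h and Obp18a the mated libraries lie wholly above the naive ones.

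The carriers are short genes, with 398 to 1101 bp of exon among those tested, and fold changes moved with length over all genes. The 1170 tested genes in this length range had a median log2 fold change of 0.37, and 11.1% of them were higher in mated libraries at an unadjusted edgeR p under 0.05. The 5691 longer genes had a median of -0.08 and 4.09%. At an adjusted edgeR p under 0.05, 9 of the 1170 genes passed (0.769%), the 3 called carriers among them. The share was 0.193% of the longer genes and 5.19% of the 77 shorter ones. The part of length in the carriers' values was not tested.

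Npc2g and Npc2h lie in tandem on chromosome arm 3R (Ensembl BDGP6, release 115), Npc2g at 30744605 to 30745263 and Npc2h at 30745479 to 30746290, both on the minus strand and 215 bp apart. As close paralogs they may have shared reads, so the split between them is uncertain. Npc2g had 204, 295, 89.2 and 88.2 CPM in mated libraries 1 to 4, against 27.1, 34.5, 36.7 and 13.5 CPM in naive libraries 1 to 4. The lowest mated library was above the highest naive one, and mated libraries 1 and 2 stood above mated 3 and 4. It averaged 169 ± 100.1 CPM in mated and 27.9 ± 10.5 CPM in naive libraries (SD, n = 4 each), a log2 fold change of 2.60 ± 0.49 (SE) with an edgeR adjusted p of 0.0345.

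Npc2h, whose protein binds bacterial cell wall components, had 215, 314, 139 and 237 CPM in mated libraries 1 to 4, against 33.5, 59.1, 61.0 and 19.7 CPM in naive libraries 1 to 4. Again no naive library reached a mated one. It averaged 226 ± 71.8 CPM in mated and 43.3 ± 20.1 CPM in naive libraries (SD, n = 4 each), with a log2 fold change of 2.39 ± 0.42 and an edgeR adjusted p of 0.0196. The ratio of Npc2g to Npc2h counts was 0.953, 0.940, 0.640 and 0.372 in mated libraries 1 to 4, against 0.808, 0.583, 0.603 and 0.684 in naive libraries 1 to 4, so the groups overlapped in it. Both genes kept an adjusted p under 0.05 in 3 of the 8 fits that left out 1 library and lost it without mated 1, mated 2, naive 1, naive 2 or naive 4, with edgeR adjusted p-values up to 0.165 for Npc2g and 0.113 for Npc2h. Within title number 1119 the order was kept, with Npc2g at 204 and 89.2 CPM in mated libraries 1 and 3 and 36.7 CPM in naive library 3, and Npc2h at 215 and 139 CPM against 61.0 CPM.

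Npc2a, the closest fly counterpart of the founding member and with Npc2b required for normal sterol distribution, was read throughout. It had 59.4, 33.5, 34.4 and 9.23 CPM in mated libraries 1 to 4, against 16.1, 14.0, 26.4 and 45.3 CPM in naive libraries 1 to 4. The groups overlapped, and the log2 fold change was 0.42 ± 0.74 (edgeR adjusted p = 0.952). Npc2b had 131, 1, 59 and 48 counts in mated libraries 1 to 4, against 1, 109, 0 and 2 counts in naive libraries 1 to 4, and thus was plainly read in 3 mated libraries and 1 naive library. Its log2 fold change was 0.53 ± 1.89 (edgeR adjusted p = 0.987). Npc2f never had more than 3 counts, with 0 to 0.396 CPM in mated and 0 to 0.494 CPM in naive libraries.

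The partner gene Npc1a, whose product takes sterols from Npc2 in the lysosome, averaged 44.5 ± 11.3 CPM in mated and 94.1 ± 41.2 CPM in naive libraries (SD, n = 4 each). Its log2 fold change was -1.08 ± 0.45, with an unadjusted p of 0.0317 and an adjusted p of 0.409 in edgeR. This was on the other side of 0 from Npc2g and Npc2h and from Npc2a, which was at 0.42 ± 0.74. A link between Npc1a and any of these genes was not tested. Npc1b, the counterpart known from sterol uptake in the gut, had 25 counts in mated library 3 and 0 elsewhere.

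Obp99c lies on 3R at 29685736 to 29689311, on the minus strand, and had the largest number of reads among the 3 carriers past the threshold. It had 496, 477, 135 and 341 CPM in mated libraries 1 to 4, against 38.7, 7.41, 39.5 and 38.2 CPM in naive libraries 1 to 4. The lowest mated library, mated 3, was above every naive library, and naive 2 was far below the other naive libraries. Obp99c averaged 362 ± 166 CPM in mated and 31.0 ± 15.7 CPM in naive libraries (SD, n = 4 each), a log2 fold change of 3.55 ± 0.53 with an edgeR adjusted p of 0.00803. The adjusted p was 0.0524 without mated 1 and 0.0542 without naive 4, and stayed under 0.05 in the other 6 fits that left out 1 library. Of its 669 exonic bases 23 overlap Gycalpha99B on the opposite strand, and that gene had a log2 fold change of -0.59 ± 0.37 (edgeR adjusted p = 0.655).

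Obp99b, also named tsx, lies on 3R at 29716254 to 29716896, in the same region as Obp99c, and had the highest level of the family. It had 763, 298, 79.3 and 870.0 CPM in mated libraries 1 to 4, against 31.3, 100.2, 329.7 and 109 CPM in naive libraries 1 to 4. Mated 3 lay below 3 naive libraries and naive 3 above mated 2 and 3, so the groups overlapped. The log2 fold change of 1.82 ± 0.77 had an unadjusted p of 0.0378 and an adjusted p of 0.433 in edgeR. It was 2.64 without naive 3, and 0.35 in a model that included the title number (edgeR adjusted p = 0.241 and 0.945). Within title number 1119, the mated libraries 1 and 3 thus fell on either side of naive 3.

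Obp99a, in the same stretch of 3R, was too sparse to be tested in edgeR. It had 184, 3, 3 and 86 counts in mated libraries 1 to 4, against 0, 1, 2 and 2 counts in naive libraries 1 to 4. Every naive library was under the floor of 3 counts, and 2 mated libraries were exactly at it. Its mated mean of 8.28 ± 10.1 CPM (SD, n = 4) was at least 19.6-fold higher than the mean floor of the naive libraries, 0.423 CPM, taken per library. Without mated 1 the mated mean was 3.94 CPM and the bound 9.31-fold. Obp99d, next to Obp99b, had no count.

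Obp44a has been studied in glia of the fly nervous system as a fatty acid carrier. It had 741, 455, 37.7 and 291 CPM in mated libraries 1 to 4, against 89.7, 97.8, 65.9 and 170.2 CPM in naive libraries 1 to 4. Mated 3 was below all naive libraries and the other mated libraries were above all of them. The log2 fold change was 1.85 ± 0.62, with an unadjusted p of 0.0101 and an adjusted p of 0.257 in edgeR, and it was past the adjusted threshold in 1 of the 8 fits that left out 1 library. That fit, without mated 3, gave a log2 fold change of 2.25 and an adjusted p of 0.0201, while the fit without mated 1 gave 1.30 and 0.621 (edgeR). It shares 205 of 1076 exonic bases with Pabp2 on the opposite strand, which had a log2 fold change of -0.97 ± 0.70 (edgeR adjusted p = 0.709).

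**Figure D3:**
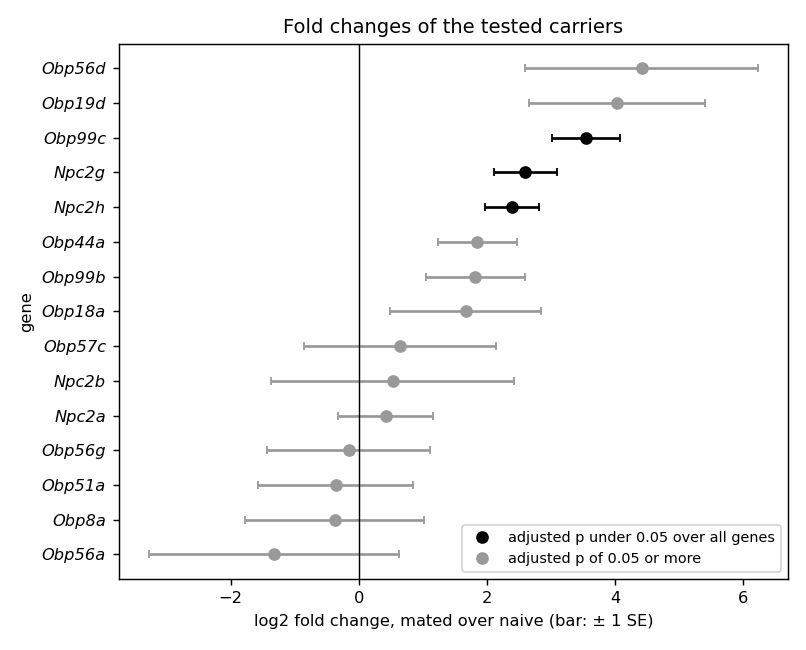
Log2 fold change, mated over naive, with its SE from edgeR for the 15 tested carriers, in black where the p adjusted over all tested genes was under 0.05. Obp99c, Npc2g and Npc2h are the black points, while Obp56d and Obp19d have larger fold changes with wider errors.

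Obp18a and Obp19d are X-linked carriers, the second of them known from taste and olfactory organs. Obp18a had 52.2, 28.3, 25.0 and 21.0 CPM in mated libraries 1 to 4, against 5.78, 20.3, 0 and 13.7 CPM in naive libraries 1 to 4. The groups did not overlap, by a margin of less than 1 CPM between mated 4 and naive 2, and the log2 fold change of 1.67 ± 1.17 had an edgeR adjusted p of 0.700. Obp19d had 57.9, 28.2, 12.7 and 3.43 CPM in mated libraries 1 to 4, against 0.218, 3.71, 1.65 and 0.647 CPM in naive libraries 1 to 4. Mated 4 fell just below naive 2, and all other mated libraries were above every naive one. Its log2 fold change was 4.03 ± 1.37, with an unadjusted p of 0.0105 and an adjusted p of 0.262 in edgeR, and without mated 1 it was 3.24 with an adjusted p of 0.666.

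Obp56d, a carrier found in many chemosensory hairs, had 57.5, 2.87, 0.582 and 6.46 CPM in mated libraries 1 to 4, against 0, 0.483, 1.48 and 1.16 CPM in naive libraries 1 to 4. Mated 1 alone held 81.7% of its counts, and mated 3 lay within the naive range. The log2 fold change of 4.41 ± 1.81 had an unadjusted p of 0.0287 and an adjusted p of 0.394 in edgeR, and without mated 1 it was 2.06 with an adjusted p of 0.875.

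With DESeq2, 6 carriers had an adjusted p under 0.05, against 5.33% of its 7989 genes. They were the 3 named above with Obp19d (adjusted p = 0.00415), Obp99a (0.0223) and Obp56d (0.0395), all higher in mated libraries. DESeq2 gave an adjusted p to all 15 carriers tested in edgeR and also to Obp49a, Obp84a and Obp99a, so its set of carriers was larger. When edgeR's model included the title number, no carrier and no gene passed the adjusted threshold, although 2 carriers and 452 genes had an unadjusted p under 0.05. In that fit Obp99c, Npc2g and Npc2h each had an adjusted p of 0.702, with log2 fold changes of 3.00, 2.00 and 1.54. Only number 1119 is in both groups, so the group effect there rests on mated libraries 1 and 3 against naive library 3. The lack of calls therefore does not show that differences are absent.

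The other tested Obp genes overlapped between the groups. Obp8a had 0.116, 10.8, 5.31 and 14.8 CPM in mated libraries 1 to 4, against 21.2, 5.80, 2.64 and 10.6 CPM in naive libraries 1 to 4 (log2 fold change -0.38 ± 1.40, edgeR adjusted p = 0.987). Obp57c had 1.04, 1.56, 2.11 and 3.30 CPM in mated libraries 1 to 4, against 0.764, 0, 0.165 and 4.14 CPM in naive libraries 1 to 4. Its highest and lowest values were both in naive libraries, and the log2 fold change was 0.65 ± 1.49 (edgeR adjusted p = 0.976). Obp56a had 0, 1.39, 4.80 and 0 CPM in mated libraries 1 to 4, against 2.84, 12.7, 0.165 and 0 CPM in naive libraries 1 to 4, and each group thus held libraries with and without it (log2 fold change -1.32 ± 1.95, edgeR adjusted p = 0.923).

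Several carriers outside the test were read strongly in few libraries and hardly at all in the rest. Obp69a, tied to social responses to the male pheromone, had 115 counts in mated 4 and 87 in naive 2, with 1 count in mated 2 and 0 in the other 5 libraries. Obp49a, known from taste hairs where it lets bitter compounds mute sweet responses, had 64 counts in mated 4, 45 in naive 1 and 67 in naive 2, and 0 or 1 in the other libraries. Neither gene followed the groups. Obp57b had 134 of its 139 counts in mated 2, although Obp57c, only 48 bp away, was read in 6 libraries. Obp83a, the antennal partner of Obp83b, had 27 of its 30 counts in mated 2.

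Obp57a reached the floor in 3 libraries, with 0 to 1.38 CPM in mated and 0 to 0.776 CPM in naive libraries. Obp84a had no count in any mated library and had 62 and 26 counts in naive 3 and 4. It shares 663 of 817 exonic bases with Dtwd2 on the opposite strand, so the reads of both genes cannot be told apart unless strand was used in counting. Dtwd2 had 0, 272, 87 and 0 counts in mated libraries 1 to 4, against 1, 0, 5 and 72 counts in naive libraries 1 to 4. Obp19a, Obp22a, Obp56e, Obp56f, Obp58c, Obp83ef, Obp83g and Obp85a reached the floor in 1 library each, with 3 to 10 counts there.

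Obp56g and Obp51a, both known from the male reproductive tract as seminal fluid proteins, were read at low and even counts. Obp56g had 40, 43, 35 and 40 counts in mated libraries 1 to 4, against 27, 26, 38 and 36 counts in naive libraries 1 to 4. Obp51a had 12, 20, 14 and 7 counts in mated libraries 1 to 4, against 16, 8, 15 and 8 counts in naive libraries 1 to 4. Every library held both genes above the floor and the groups overlapped in each, and the edgeR adjusted p was 0.994 for Obp56g and 0.984 for Obp51a.

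The variance of the raw count over the 8 libraries, divided by its mean, was 1.07 for Obp56g and 1.69 for Obp51a, against 10.5 for Obp57c and 43.2 for Obp56a, whose mean counts are similar. Among 802 tested genes with a mean count of 5 to 50, the median ratio was 41.5, and 6 genes had a smaller ratio than Obp56g and 26 a smaller one than Obp51a. A list of 49 male accessory gland genes, added after these values were seen, summed to 35.0 to 54.5 CPM in mated and 25.1 to 61.5 CPM in naive libraries. Of its 17 genes with a mean count of 5 or more, 15 had a ratio under 3, against 55 of the 802 genes. All of the 802 had passed the filter on low counts, but only 8 genes of the list had. That filter can drop low genes with even counts and keep uneven ones. The sets are therefore not a like comparison, for this ratio or for the medians below. Because library sizes differ, counting error alone at a constant level per library size would give a raw ratio of 4.18 for Obp56g and 2.11 for Obp51a, so the raw counts of both were more even than that. Measured around such a constant level, the ratio was 3.20 for Obp56g and 1.43 for Obp51a, against a median of 37.0 over the 802 genes and 2.51 over the 17 accessory gland genes. On that scale 39 of the 802 genes had a smaller ratio than Obp56g and 6 a smaller one than Obp51a. The part of such tissue in these reads was not tested.

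**Figure D4:**
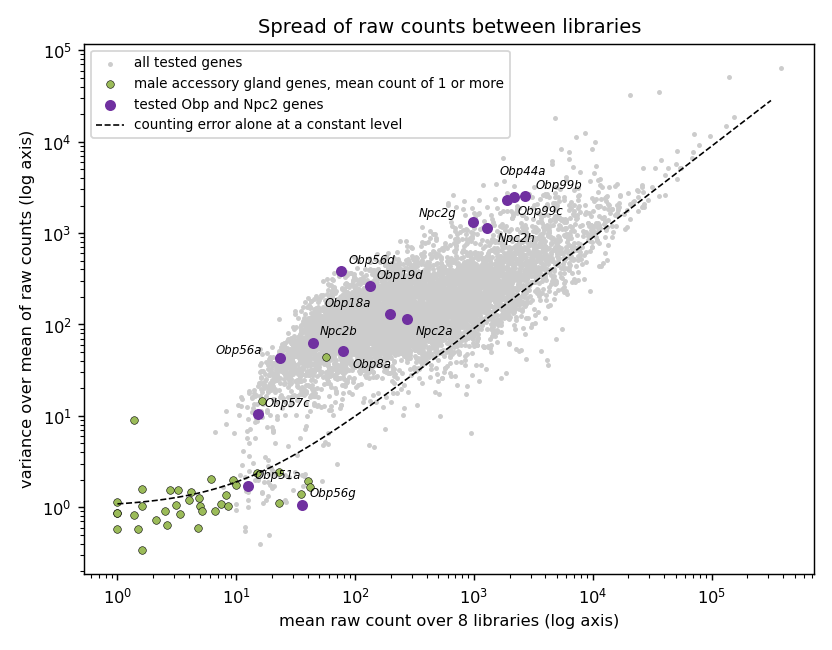
Variance over mean of raw counts (log axis) against the mean raw count over 8 libraries (log axis) for all tested genes in grey, male accessory gland genes in green and the 15 tested carriers in purple, with a dashed curve for counting error alone at a constant level per library size. Obp56g at 1.07 and Obp51a at 1.69 lie below the curve among the accessory gland genes, while the other 13 carriers lie above it.

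Markers of some other cell types moved with the groups beside the carriers. The fat body list summed to 1231 to 2954 CPM in mated and 243 to 607 CPM in naive libraries, and all 6 of its tested genes had positive fold changes, of which apolpp passed the adjusted threshold, with Lsp1gamma at 0 in every library. The glia list summed to 302 to 1071 CPM in mated and 126 to 350 CPM in naive libraries. Again all 6 tested genes were positive, 4 of them with an unadjusted p under 0.05 and none past the adjusted threshold in edgeR. Of these, repo had a log2 fold change of only 0.25 ± 1.77 (edgeR adjusted p = 0.994). The highest mean level on the list was that of nrv2, at 409 ± 186 CPM in mated and 145 ± 87.2 CPM in naive libraries (SD, n = 4 each). The photoreceptor list summed to 96.0 to 553 CPM in mated and 18.2 to 58.2 CPM in naive libraries. Of its 5 tested genes 4 were positive, and inaD was negative (log2 fold change -2.49 ± 1.61, edgeR adjusted p = 0.661). Its member Arr2, an arrestin, passed the threshold with 180.4 ± 133 CPM in mated and 13.0 ± 7.51 CPM in naive libraries (SD, n = 4 each; edgeR adjusted p = 0.0196).

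The hemocyte list overlapped between the groups, at 29.6 to 51.4 CPM in mated and 0.967 to 77.6 CPM in naive libraries. Of its 3 tested genes 2 were positive, 1 with an unadjusted p under 0.05, and none passed the adjusted threshold in edgeR. The muscle list overlapped too, at 22.0 to 142 CPM in mated and 6.61 to 39.1 CPM in naive libraries. All 4 of its tested genes were positive, none with an unadjusted p under 0.05 in edgeR. Neither the hemocyte nor the muscle sum separated the groups, while the fat body and photoreceptor sums did so and the glia sum overlapped slightly. The neuron sum separated them in the other direction, at 3462 to 5725 CPM in mated and 5850 to 8519 CPM in naive libraries. All 4 neuron genes had negative fold changes, 3 with an unadjusted p under 0.05 and none past the adjusted threshold in edgeR. The selection genes fru and dsx were negative too, 1 of them with an unadjusted edgeR p under 0.05. In mated libraries 1 to 4 the summed Npc2 level was 493, 643, 267 and 342 CPM, against 77.0, 125, 125 and 78.9 CPM in naive libraries 1 to 4. The summed Obp level was 2200.4, 1324, 309 and 1594 CPM in mated libraries 1 to 4, against 200.4, 280.4, 461 and 359 CPM in naive libraries 1 to 4, with mated 3 inside the naive range. Fewer cells of a type and less RNA per cell cannot be told apart in such libraries, and the part of other cells in the carriers' values was not tested.

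**Figure D5:**
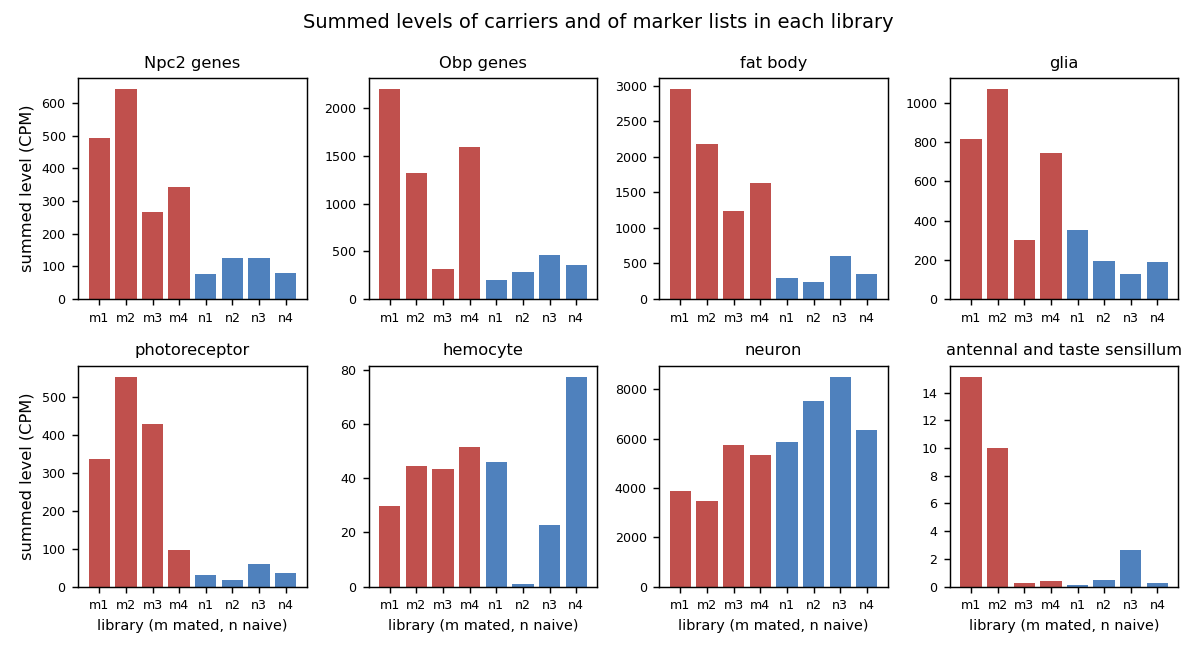
Summed level in CPM of the Npc2 genes, the Obp genes and 6 marker lists in each library (m, mated, left; n, naive, right), each panel with its own axis from 0. The Npc2, fat body and photoreceptor sums of all mated libraries lie above those of all naive libraries, and the Obp sum of mated 3 does not. The neuron sums of all mated libraries lie below those of all naive libraries.

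Among 29 matched genes of lipid transport other than the carriers, 19 were tested, with 10 positive and 9 negative fold changes and a median log2 fold change of 0.30. In edgeR 2 of them passed the adjusted threshold, both higher in mated libraries. apolpp, the backbone protein of the circulating lipoprotein and also on the fat body list, had 1027 ± 464 CPM in mated and 241 ± 93.5 CPM in naive libraries (SD, n = 4 each; log2 fold change 2.09 ± 0.35, edgeR adjusted p = 0.0163). Acbp2, an acyl-CoA binding protein, had 367 ± 154 CPM in mated and 93.7 ± 24.6 CPM in naive libraries (SD, n = 4 each; log2 fold change 1.97 ± 0.37, edgeR adjusted p = 0.0331). Of 20 other chemosensory genes only 3 were tested and none passed, and 8 were at 0 in every library, including the receptor genes Ir8a, Ir25a, Ir76b and Or47b.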

How the data were processed

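P1 neurons of mated and naive males were profiled as 8 libraries, entered as 16 runs. The authors deposited raw read counts per gene for runs A and B and their sum. Submitters' processing notes name HISAT2 2.2.1, featureCounts 1.6.2, dm6 and BDGP6. The strand setting is not given in the sources used here. Per the labels' protocols, cDNA was amplified for 15 and then 12 rounds, so reads are not independent molecules. The sums were tested with edgeR 4.0.16 (filterByExpr, TMM, robust quasi-likelihood, group only), with Benjamini-Hochberg adjustment at 0.05. The SE is the coefficient over the square root of F. DESeq2 1.42.0 and the other alternatives are given at the end. Code was tested on simulated data. Symbols matched 17252 of 17559 identifiers, and positions and exon lengths came from Ensembl release 115. Values are given for the carriers, lush, the Npc1 genes and list members past the threshold, by rule. Genes that overlap carriers, and repo, nrv2 and inaD, were chosen after their values were seen. Other list members are named for their list or because they were at 0. Members and lists were chosen with earlier results of these data known. The accessory gland list, the length ranges, the spread around a constant level and the bound without 1 library were added after seeing the values. No sequences are printed.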

Additional observations from a re-analysis of the deposited data

Results flagged for a closer look

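Within each group of 4 libraries, the highest and the lowest value of every tested carrier were set against the other 3. Among 30 such groups 3 had a library far from the rest by Dixon's criterion. Chance meets it in about 1 in 20 groups if values are normally distributed. CPM values of the low carriers were often skewed, and the chance rate for such values was not tested.

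Obp56d was at 57.5 CPM in mated library 1, against 0.582 to 6.46 CPM in the other mated libraries. This library also had the highest levels of Obp18a and Obp19d. Obp99c was at 7.41 CPM (46 counts) in naive library 2, against 38.2 to 39.5 CPM in the other naive libraries. Npc2b was at 17.6 CPM (109 counts) in naive library 2, against 0 to 0.259 CPM in the other naive libraries, and this was also above the 15.2 CPM of the highest mated library.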

How the results depend on the processing

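The count of genes past the adjusted threshold was 27 with edgeR as described, and 46 with library-size scaling, 56 without a filter, 64 with at least 10 counts in every library, 47 from run B alone and 426 with DESeq2. With the title number as a factor it was 0 in edgeR, where 452 genes had an unadjusted p under 0.05. Leaving out 1 library gave 6 to 53. The count of carriers called was 3, but 6 with DESeq2, 0 with the title number and 0 to 4 on leaving out 1 library, with 0 without mated 1 or naive 4. Without mated 2, naive 1 or naive 2 the only one called was Obp99c. Carriers with an unadjusted p under 0.05 numbered 7, but 4 with at least 10 counts in every library, 2 with the title number and 3 to 7 on leaving out 1 library. The median log2 fold change of 1.67 over the 15 tested carriers was 2.56 with the title number. It was 0.84 to 1.80 on leaving out 1 library, where the carriers that passed the filter could differ. The DESeq2 median of 1.23 was taken over all 38 carriers with any count, so it is not a like comparison with the 15. Library-size scaling moved the median log2 fold change of all genes to 0.17, against -0.01. Some fold changes smaller than their SE turned sign, among them that of Obp56a, at -1.32 ± 1.95 in the main fit. Obp56g was 0.038 with library-size scaling and -0.32 to 0.033 on leaving out 1 library. With the title number Obp56a was 3.76 and Obp8a 0.049. On leaving out 1 library Obp56a ran from -2.98 to 0.62, Obp8a from -0.90 to 0.28 and Npc2b from -0.33 to 5.54. The causes were not tested. Carriers at the floor in some library numbered 27 to 31, and in every library 8 to 10, on leaving out 1 library. No paired analysis was possible because the labels do not say which mated and naive animals belong together. The biological coefficient of variation of 0.936 limits what 4 libraries a group can show for the low carriers.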
